A study of Mus musculus with 9 samples.

Results

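Microglia of an amyloid mouse model in which connexin 43 (Cx43) had been targeted were compared with wild-type microglia, to see what still differed from wild type once the connexin gene had been targeted. The comparison used 6 of the 9 libraries of the study, 3 per group, and 13115 of the 18571 genes in its expression table. A gene was kept where it lies on an autosome and its mean over the 6 libraries was at least 1 CPM. For this level, CPM was counts scaled to a common library size with plain library totals. Serpinf2 at 1.001 CPM lay just inside that level, and Gm27021 at 0.9996 CPM lay just outside it. In later paragraphs, CPM was scaled with TMM factors as well. The wild-type (WT) mice carried neither transgenes, Cre nor floxed alleles as far as the labels say. The other group, called Cx43 cKO here, carried the APP/PS1 transgenes together with Cx3cr1-CreER and floxed Cx43. APP/PS1 mice without Cre or floxed Cx43 formed another group of 3 libraries, whose values are given beside the others for orientation. Comparisons of both amyloid groups with WT share the WT libraries. All groups were C57BL/6J mice of 9 months, and all received tamoxifen by gavage at 0.1 mg per g for 5 days at 8 months. Cells were captured with a CD45 antibody after papain digestion of cortex and hippocampus with the meninges removed, and poly-A RNA was read with single-end reads of 50 nt.

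The design limits what a difference can mean. Cx43 cKO differs from WT in the transgenes, in the Cre inserted at the Cx3cr1 locus and in the floxed gene, so the share of each in a difference cannot be told apart. The CreER acts in cells that express Cx3cr1, which include microglia, other brain macrophages and some blood cells. The CD45 antibody binds all white blood cells. The labels do not say that the libraries came from separate animals, so every p-value measures only the spread between these libraries. Reads from human transgene transcripts were not separated from mouse reads.

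Microglia are the resident macrophages of the brain. Near amyloid plaques they lower part of the set of genes typical of the resting cell and raise genes of lipid metabolism, lysosomes and phagocytosis, a change that depends in part on the receptor TREM2 and its adaptor TYROBP. Cx43, encoded by Gja1, forms gap junctions and hemichannels that let ions and small molecules such as ATP pass through the membrane, and in the brain it is most abundant in astrocytes.

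Libraries held 18907681 to 19565354 counts each, and the scatter between libraries of a group was small (biological coefficient of variation 3.14%). The labelled cell type was checked on TPM, which is scaled to transcript length. The microglial gene C1qa had means of 5849, 5943 and 5674 TPM in WT, APP/PS1 and Cx43 cKO, and P2ry12 had means of 1609, 1807 and 1589 TPM, while Snap25, a neuronal gene, stood at 17.2, 16.04 and 11.1 TPM. Some other microglial genes were less even, such as Csf1r at 4077, 2221 and 2974 TPM and Fcrls at 227, 1408 and 1266 TPM. Siglech, also microglial, stood at 901, 997 and 999 TPM. Transcripts of other cell types were also abundant. The neutrophil gene S100a8 stood at 3439, 1549 and 10511 TPM, the red cell gene Hbb-bs at 1895, 389 and 143 TPM, and Mbp, a myelin gene of oligodendrocytes, at 1128, 826 and 930 TPM. In bulk RNA, fewer cells of a type and less RNA per cell cannot be told apart.

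Gja1 (GRCm38.p6 chr10:56377300-56390419) was measured first, as the targeted gene. Its level was 34.0, 31.6 and 35.1 CPM in the WT, 39.7, 37.0 and 42.4 CPM in the APP/PS1 and 27.2, 25.3 and 28.1 CPM in the Cx43 cKO libraries. Every Cx43 cKO library lay below every WT library, and the mean was 0.800 times the WT mean (log2 -0.32, SE 0.06, adjusted p = 7.62e-05, edgeR quasi-likelihood test with Benjamini-Hochberg adjustment, as for all adjusted p below). A two-sided exact permutation test on the same values gave p = 0.1, the smallest that 3 libraries against 3 can give. Most of the Gja1 signal of WT was therefore still present, so a loss of Cx43 is not shown by these counts, and Cx43 cKO names the labelled genotype throughout. Against APP/PS1 the difference was larger (log2 -0.56). Gene-level counts do not show whether the remaining reads cover the floxed exon, and the part of astrocyte RNA in them was not tested. The 15 astrocyte markers summed to 919 to 924 CPM in WT, 1132 to 1160 CPM in APP/PS1 and 895 to 902 CPM in Cx43 cKO. Against APP/PS1, 14 of the 15 were called lower in Cx43 cKO, with a median of -0.47, where 28.4% of all genes were called lower.

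Cx3cr1 (GRCm38.p6 chr9:120048683-120068296), the fractalkine receptor gene that carries the CreER, was lower in Cx43 cKO than in WT. It stood at 2246, 2287 and 2244 CPM in the WT, 2222, 2246 and 2222 CPM in the APP/PS1 and 1185, 1230.4 and 1226 CPM in the Cx43 cKO libraries (log2 -0.90, SE 0.03, adjusted p = 9.34e-21). WT and APP/PS1 libraries overlapped, and all 3 Cx43 cKO libraries lay below both groups. App and Prnp were also measured, and both were higher than in WT. App stood at 501, 498 and 502 CPM in the WT, 518, 515 and 525 CPM in the APP/PS1 and 589, 595 and 602 CPM in the Cx43 cKO libraries (log2 0.25, SE 0.03, adjusted p = 9.72e-09). In APP/PS1 against WT, App did not pass (log2 0.05, adjusted p = 0.087). Prnp, which encodes the prion protein, stood at 284, 282 and 289 CPM in the WT, 347, 352 and 349 CPM in the APP/PS1 and 423, 433 and 446 CPM in the Cx43 cKO libraries (log2 0.60, SE 0.03, adjusted p = 1.04e-15).

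The Y-linked genes lie outside the autosomal set but touch every comparison. Ddx3y held 4137 to 4258 counts in WT, 4170 to 4538 in APP/PS1 and 0 to 2 in Cx43 cKO. Eif2s3y held 1242 to 1404, 1901 to 2007 and 2 to 5 counts, and Kdm5d held 402 to 425, 310 to 315 and 0 to 1 counts in the same order. Expression tied to sex and the effect of genotype therefore cannot be told apart in any difference between Cx43 cKO and WT.

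Of the 13115 genes, 6562 (50.0%) differed between Cx43 cKO and WT at an adjusted p under 0.05. Of these, 3447 (26.3% of the genes) were higher and 3115 (23.8%) were lower in Cx43 cKO. Most differences were small, and 4587 of the called genes (69.9%) changed by less than 0.5 on the log2 scale. A change of at least 2-fold was called for 574 genes (4.38%), 373 higher (2.84%) and 201 lower (1.53%), and a change of at least 4-fold for 76 higher and 40 lower genes. The 3 libraries of each group did not overlap at 7427 genes (56.6%). The share of called genes that were higher was 52.5% with TMM scaling, where the median over all genes was -0.0051, and depended on the scaling. It was 30.6% with plain library totals, which shift the median of all genes to -0.11, and 19.7% on TPM, which shifts it to -0.18. Over all genes tested, 17.6% were called higher and 39.8% lower with plain library totals, and 12.7% higher and 51.6% lower on TPM. On FPKM the share of higher calls was 32.1%. DESeq2 size factors moved it the other way, to 58.3%, and the DESeq2 Wald test to 61.8%. The 2-fold changes described below are several times larger than these shifts, whereas the direction of the smallest called changes can turn with the scaling.

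**Figure D1:**
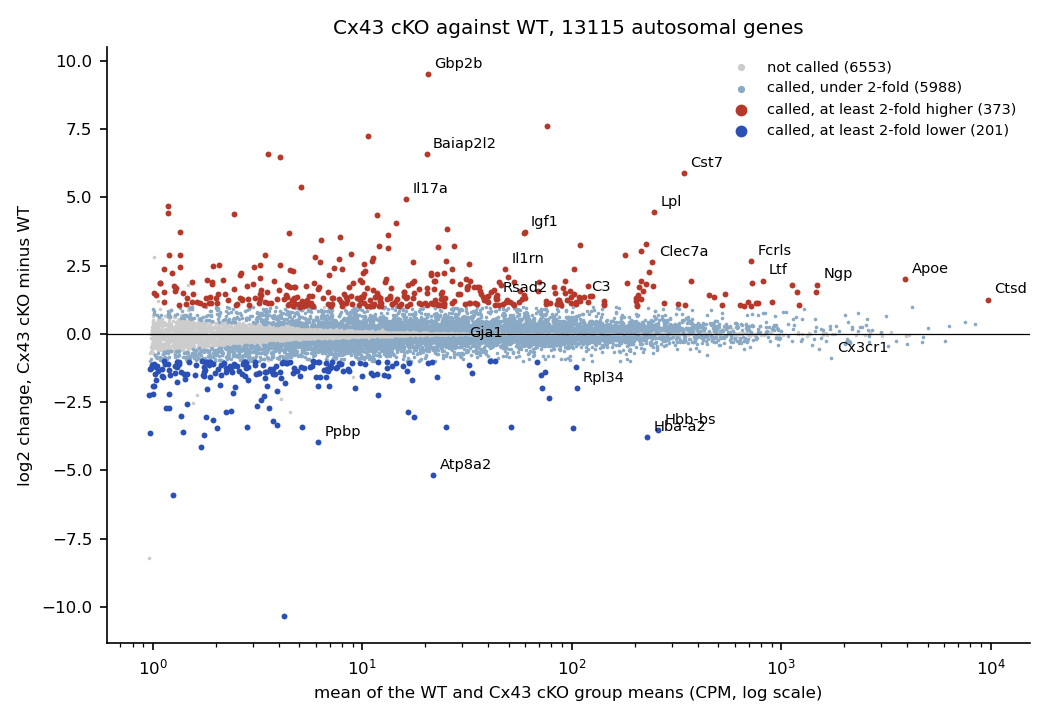
Each point is 1 of the 13115 genes, with the mean of the WT and Cx43 cKO group means (CPM, log axis) on the x axis and the fitted log2 difference of Cx43 cKO minus WT on the y axis. The 373 genes at least 2-fold higher and the 201 at least 2-fold lower stand out from 5988 called genes with smaller changes and 6553 that did not pass.

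Genes that microglia raise around amyloid plaques were mostly far above WT in the Cx43 cKO libraries. Of 42 genes of this response, 41 reached the level to be tested, 38 were higher than in WT and 32 of them at least 2-fold, where 26.3% of all genes were higher and 2.84% at least 2-fold higher. Ccl3 was lower, and Ccl4 and Cd83 did not pass the test. The median difference from WT was 1.74 on the log2 scale, against a median of -0.0051 over all genes. The same genes in APP/PS1 had a median difference from WT of 2.01. Set directly against APP/PS1, 11 of the 41 were higher and 25 lower in Cx43 cKO, where 29.1% of all genes were higher and 28.4% lower.

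Cst7 encodes cystatin F, an inhibitor of lysosomal cathepsins. Its level was 10.5, 12.1 and 11.7 CPM in the WT, 1026, 1009.7 and 1037 CPM in the APP/PS1 and 679, 659 and 690.4 CPM in the Cx43 cKO libraries (Cx43 cKO against WT: log2 5.89, SE 0.04, adjusted p = 1.55e-33). The 3 groups did not overlap, and Cx43 cKO lay far above WT and below APP/PS1. Baiap2l2, a membrane-bending BAR domain protein, stood at 0.399, 0.492 and 0.343 CPM in the WT, 34.0, 37.2 and 38.8 CPM in the APP/PS1 and 35.9, 43.3 and 41.1 CPM in the Cx43 cKO libraries (log2 6.58, SE 0.14, adjusted p = 5.22e-22), so that the libraries of both amyloid groups overlapped. Lpl encodes lipoprotein lipase, which frees fatty acids from triglycerides. It reached 21.01, 20.4 and 22.8 CPM in the WT, 365, 366 and 364 CPM in the APP/PS1 and 488, 465 and 467 CPM in the Cx43 cKO libraries (log2 4.47, SE 0.04, adjusted p = 1.5e-31), and Cx43 cKO was the highest group. Dkk2, a secreted Wnt modulator, was also much higher than in WT (log2 5.39, SE 0.20, adjusted p = 2.88e-18).

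Apoe encodes the main lipid carrier protein of the brain. It stood at 1519, 1635 and 1489 CPM in the WT, 5707, 6358 and 5627 CPM in the APP/PS1 and 6109, 6696 and 6070.4 CPM in the Cx43 cKO libraries (log2 2.02, SE 0.07, adjusted p = 8.08e-08), with overlapping libraries in both amyloid groups (Cx43 cKO minus APP/PS1: log2 0.09, adjusted p = 0.255). Csf1, a growth factor for macrophages, was 297, 309.6 and 320.0 CPM in the WT, 869.7, 907 and 921 CPM in the APP/PS1 and 1093, 1157 and 1156 CPM in the Cx43 cKO libraries (log2 1.88, SE 0.03, adjusted p = 2.4e-25). Its Cx43 cKO libraries exceeded all others. Clec7a, the pattern receptor Dectin-1, stood at 70.5, 67.9 and 65.6 CPM in the WT, 634, 588 and 612 CPM in the APP/PS1 and 433, 404 and 416 CPM in the Cx43 cKO libraries (log2 2.62, SE 0.04, adjusted p = 4.08e-27), and Trem2 at 466, 497 and 473 CPM in the WT, 1357, 1434 and 1362 CPM in the APP/PS1 and 1012, 1099 and 1024 CPM in the Cx43 cKO libraries (log2 1.13, SE 0.03, adjusted p = 4.14e-19). In both genes the Cx43 cKO libraries lay between the other groups.

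Several other plaque genes, picked for description after their values were seen, showed how unevenly the response stood relative to APP/PS1. Spp1, which encodes osteopontin, was 22.8, 20.9 and 19.2 CPM in the WT, 880.3, 929 and 932 CPM in the APP/PS1 and 194, 199 and 202 CPM in the Cx43 cKO libraries (log2 3.24, SE 0.05, adjusted p = 2.88e-27). It remained 9.48-fold above WT but far below APP/PS1 (log2 -2.20). Gpnmb, a glycoprotein of lysosome-rich phagocytes, was 9.58, 7.14 and 8.47 CPM in the WT, 276, 307 and 299.9 CPM in the APP/PS1 and 104, 114 and 117 CPM in the Cx43 cKO libraries (log2 3.73, SE 0.08, adjusted p = 2.7e-14). Tyrobp, the signalling adaptor of TREM2, was 460.4, 489.7 and 497 CPM in the WT, 1799, 1984 and 2043 CPM in the APP/PS1 and 1008, 1090.3 and 1110.3 CPM in the Cx43 cKO libraries (log2 1.15, SE 0.06, adjusted p = 5.78e-08). In these 3 genes the Cx43 cKO libraries lay above all WT and below all APP/PS1 libraries. Itgax, which encodes the integrin CD11c, and Igf1, a growth factor, were closer to APP/PS1. Itgax had 40.3, 44.1 and 43.5 CPM in the WT, 347, 363 and 379.8 CPM in the APP/PS1 and 303, 318 and 327 CPM in the Cx43 cKO libraries, and Igf1 had 9.43, 7.09 and 8.81 CPM in the WT, 136, 122 and 128 CPM in the APP/PS1 and 118, 106 and 107 CPM in the Cx43 cKO libraries. Lgals3, which encodes galectin-3, was higher in Cx43 cKO than in both other groups, at 48.6, 46.7 and 51.4 CPM in the WT, 41.1, 42.0 and 45.4 CPM in the APP/PS1 and 83.2, 89.5 and 92.7 CPM in the Cx43 cKO libraries (log2 0.86, SE 0.05, adjusted p = 4.28e-14, and log2 1.05 against APP/PS1). Neutrophils also express Lgals3, and their part in it was not tested.

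The chemokine gene Ccl3 was the list's exception, at 1766, 1751 and 1805 CPM in the WT, 2136, 2140.5 and 2246 CPM in the APP/PS1 and 1478, 1444 and 1528 CPM in the Cx43 cKO libraries (log2 -0.26, SE 0.03, adjusted p = 1.46e-08), with Cx43 cKO below WT and APP/PS1 above it. Ccl4 (log2 -0.01, adjusted p = 0.805) and Cd83 (log2 -0.06, adjusted p = 0.0566) did not pass. Both were called lower with plain library totals, and Cd83 also with the library number as a block (log2 -0.06). Ccl6, a chemokine of myeloid cells, was 86.5, 87.8 and 89.3 CPM in the WT, 702, 714 and 715 CPM in the APP/PS1 and 345, 340.1 and 339.8 CPM in the Cx43 cKO libraries (log2 1.96, SE 0.03, adjusted p = 1.97e-26), with the Cx43 cKO libraries between the other groups.

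**Figure D2:**
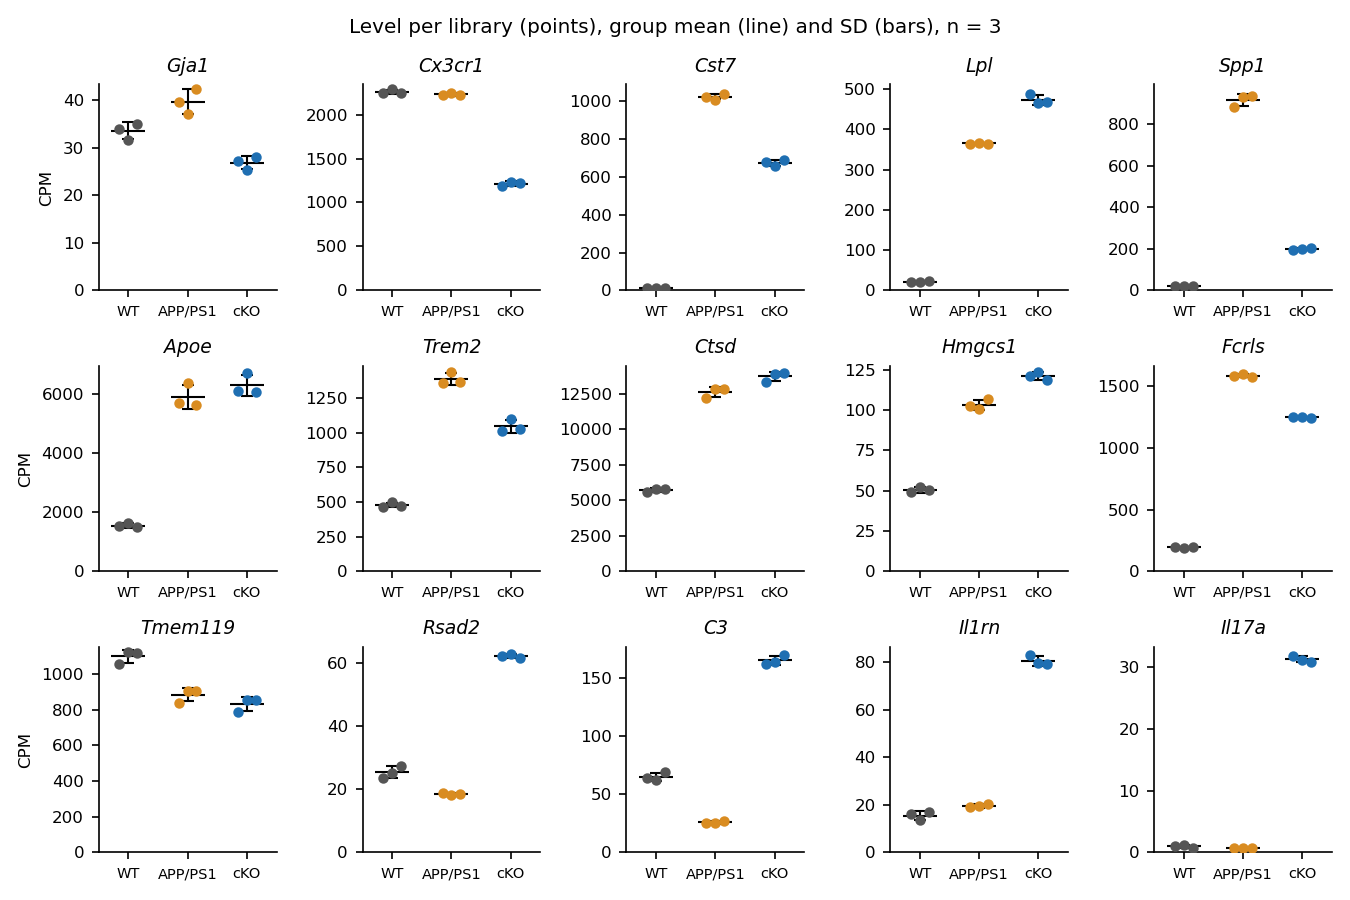
Level in CPM of 15 genes in each library, with 1 point per library and the mean and SD of the 3 libraries of each group (WT, APP/PS1, Cx43 cKO). Cst7, Lpl, Spp1 and Apoe of Cx43 cKO lie far above WT, Rsad2, C3, Il1rn and Il17a are highest in Cx43 cKO, and Gja1 and Cx3cr1 are lowest there.

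Lysosomal genes were mostly higher than in WT. Of 39 genes tested, 28 were higher, 4 lower and 7 did not pass, with 25 higher and 7 lower on plain library totals and 20 higher and 11 lower on TPM. The shares of all genes were 26.3% higher and 23.8% lower with TMM scaling, 17.6% and 39.8% with plain library totals, and 12.7% and 51.6% on TPM. The median difference was 0.29, against 0.31 in APP/PS1. Ctsd, which encodes the protease cathepsin D, was 5577, 5787 and 5805 CPM in the WT, 12174, 12796 and 12814 CPM in the APP/PS1 and 13307, 13864 and 13944 CPM in the Cx43 cKO libraries (log2 1.26, SE 0.03, adjusted p = 2.23e-23), the highest in Cx43 cKO. Ctsb, for cathepsin B, was 2811, 2822 and 2836 CPM in the WT and 5489.6, 5567 and 5672 CPM in the Cx43 cKO libraries (log2 0.98, SE 0.02, adjusted p = 4.44e-22). Gm2a, an activator protein of ganglioside breakdown, was 108, 109 and 111 CPM in the WT and 327, 324 and 334 CPM in the Cx43 cKO libraries (log2 1.59, SE 0.03, adjusted p = 1.78e-24), and Hexa, a hexosaminidase subunit, was 414, 424 and 438 CPM in the WT and 949, 971 and 973 CPM in the Cx43 cKO libraries (log2 1.18, SE 0.03, adjusted p = 3.76e-22). Glb1, a beta-galactosidase, had a log2 difference of 1.08. Atp6v0d2, a proton pump subunit of macrophages and osteoclasts, was 1.198, 1.28 and 1.13 CPM in the WT, 15.3, 14.96 and 16.3 CPM in the APP/PS1 and 7.41, 6.17 and 7.14 CPM in the Cx43 cKO libraries (log2 2.52, SE 0.14, adjusted p = 5.79e-14), above WT and below APP/PS1. The regulator Tfeb went the other way (log2 -0.31, SE 0.06, adjusted p = 5.33e-05), as did the protease gene Ctsc (log2 -0.25, SE 0.03, adjusted p = 1.04e-08).

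The promoters of this list were searched for TCACGTGA, the E-box bound by TFEB and its relatives, on both strands of RefSeq windows (GRCm38.p6) from 250 bases before to 50 bases after the start of transcription. It was found in 5 of the 27 lysosomal genes with a window (18.5%), against 212 of 10482 kept genes with a window (2.02%) and 304 of 27025 genes overall (1.12%). Of the 5, Atp6v0d1, Atp6v1a, Ctsa and Ctsd were called higher than in WT, as were 28 of the 39 genes of the whole list, and Mcoln1 did not pass (log2 0.03). The windows of Ctsd (chr7:142387893-142387952, minus strand) and of the proton pump subunit gene Atp6v1a (chr16:44139358-44139417, minus strand) are shown as 2 examples whose window lies wholly before the start site, with the match at 99 and 132 bases. Capitals mark the match.

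Ctsd: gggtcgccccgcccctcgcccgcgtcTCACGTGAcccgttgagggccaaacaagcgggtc
Atp6v1a: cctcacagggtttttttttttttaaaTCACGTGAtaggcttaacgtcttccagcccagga

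Atp6v1a was 165, 160.0 and 162 CPM in the WT and 193, 192 and 196 CPM in the Cx43 cKO libraries (log2 0.26, SE 0.03, adjusted p = 1.79e-07), a much smaller rise than that of Ctsd, which did not pass on TPM (0.06, adjusted p = 0.115 with limma). A match of letters describes the window and does not show that a factor was bound there.

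Genes of cholesterol synthesis and supply were higher than in WT. Of 22 tested, 17 were higher, none lower (2 on TPM) and 5 did not pass, where 26.3% of all genes were higher and 23.8% lower. The median difference was 0.85 (0.64 in APP/PS1). Of the 22, 8 were at least 2-fold higher than WT. Cyp51, which removes a methyl group from lanosterol, was 18.9, 19.2 and 20.3 CPM in the WT, 56.2, 54.8 and 54.7 CPM in the APP/PS1 and 53.6, 55.3 and 53.4 CPM in the Cx43 cKO libraries (log2 1.48, SE 0.05, adjusted p = 6e-19). Hmgcs1, which makes the precursor of mevalonate, was 49.0, 52.2 and 50.3 CPM in the WT, 102, 101 and 107 CPM in the APP/PS1 and 121, 124 and 119 CPM in the Cx43 cKO libraries (log2 1.26, SE 0.04, adjusted p = 1.14e-19). Hmgcs1 was highest in Cx43 cKO, whereas Cyp51 overlapped between the amyloid groups. Sqle, which makes the first sterol precursor with an epoxide, had a log2 difference of 1.03. Stard4, a cholesterol carrier, and Srebf2, the transcription factor of the pathway, had log2 differences of 1.19 and 0.81. Against APP/PS1, 10 of the 22 were higher and 3 lower, beside 29.1% and 28.4% of all genes.

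Genes of lipid transport and storage were higher more often than all genes and lower about as often. Of 31 listed, 28 were tested, 13 were higher, 7 lower and 8 did not pass (11 higher and 14 lower on TPM), where 26.3% of all genes were higher and 23.8% lower (12.7% and 51.6% on TPM). Their median of 0.08 turned negative with plain library totals and on TPM. Fabp3, a fatty acid carrier, was 1.198, 1.43 and 1.03 CPM in the WT, 25.99, 26.5 and 24.8 CPM in the APP/PS1 and 12.6, 15.5 and 15.1 CPM in the Cx43 cKO libraries (log2 3.56, SE 0.13, adjusted p = 5.05e-18), and Fabp5, another carrier, was 8.68, 7.34 and 8.42 CPM in the WT, 139, 138 and 129 CPM in the APP/PS1 and 37.6, 37.5 and 36.6 CPM in the Cx43 cKO libraries (log2 2.19, SE 0.07, adjusted p = 7.72e-20). In both the Cx43 cKO libraries lay between the other groups. Nceh1, which hydrolyses cholesterol esters, rose by 1.90 on the log2 scale and Acaca, which starts fatty acid synthesis, by 1.37. Plin2, a coat protein of lipid droplets, rose by 1.15. Abca1, the export pump for cholesterol, was lower, at 499, 477 and 497 CPM in the WT, 422, 411 and 423 CPM in the APP/PS1 and 325, 315 and 325 CPM in the Cx43 cKO libraries (log2 -0.61, SE 0.03, adjusted p = 1.04e-15), and Nr1h3, which encodes the sterol-sensing receptor LXR alpha, fell too (log2 -1.14, SE 0.20, adjusted p = 2.48e-05). Scd1, a fatty acid desaturase, had a log2 difference of -0.65.

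Genes of glycolysis and of the response to low oxygen were higher than in WT in 19 of 22 cases, with none lower (2 on TPM), where 26.3% of all genes were higher and 23.8% lower. The median difference was 0.74 (0.43 in APP/PS1). Egln3, an oxygen-sensing hydroxylase, was 3.14, 3.15 and 3.57 CPM in the WT, 42.9, 38.7 and 45.4 CPM in the APP/PS1 and 48.0, 45.6 and 48.2 CPM in the Cx43 cKO libraries (log2 3.84, SE 0.08, adjusted p = 4.13e-23). Vegfa, a growth factor for vessels, had a log2 difference of 1.44. Slc16a3, the lactate exporter MCT4, was 55.6, 57.8 and 55.7 CPM in the WT, 67.3, 70.7 and 66.7 CPM in the APP/PS1 and 129, 137 and 135 CPM in the Cx43 cKO libraries (log2 1.25, SE 0.04, adjusted p = 1.31e-19), and the glucose transporter gene Slc2a3 was 44.3, 45.8 and 48.0 CPM in the WT, 24.4, 24.5 and 25.8 CPM in the APP/PS1 and 87.5, 90.4 and 89.4 CPM in the Cx43 cKO libraries (log2 0.95, SE 0.04, adjusted p = 2.45e-16). For both, Cx43 cKO lay above both other groups, and Slc2a3 of APP/PS1 lay below WT. Hif1a, the oxygen-regulated transcription factor, was 233, 221 and 225 CPM in the WT and 486, 464 and 452 CPM in the Cx43 cKO libraries (log2 1.04, SE 0.03, adjusted p = 1.98e-19). The glycolytic enzyme genes Pkm and Tpi1 had log2 differences of 1.01 and 1.05. Against APP/PS1, 16 of the 22 were higher and 4 lower, beside 29.1% and 28.4% of all genes. Neutrophil markers were also higher in Cx43 cKO (values below), and their part in these genes was not tested.

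**Figure D3:**
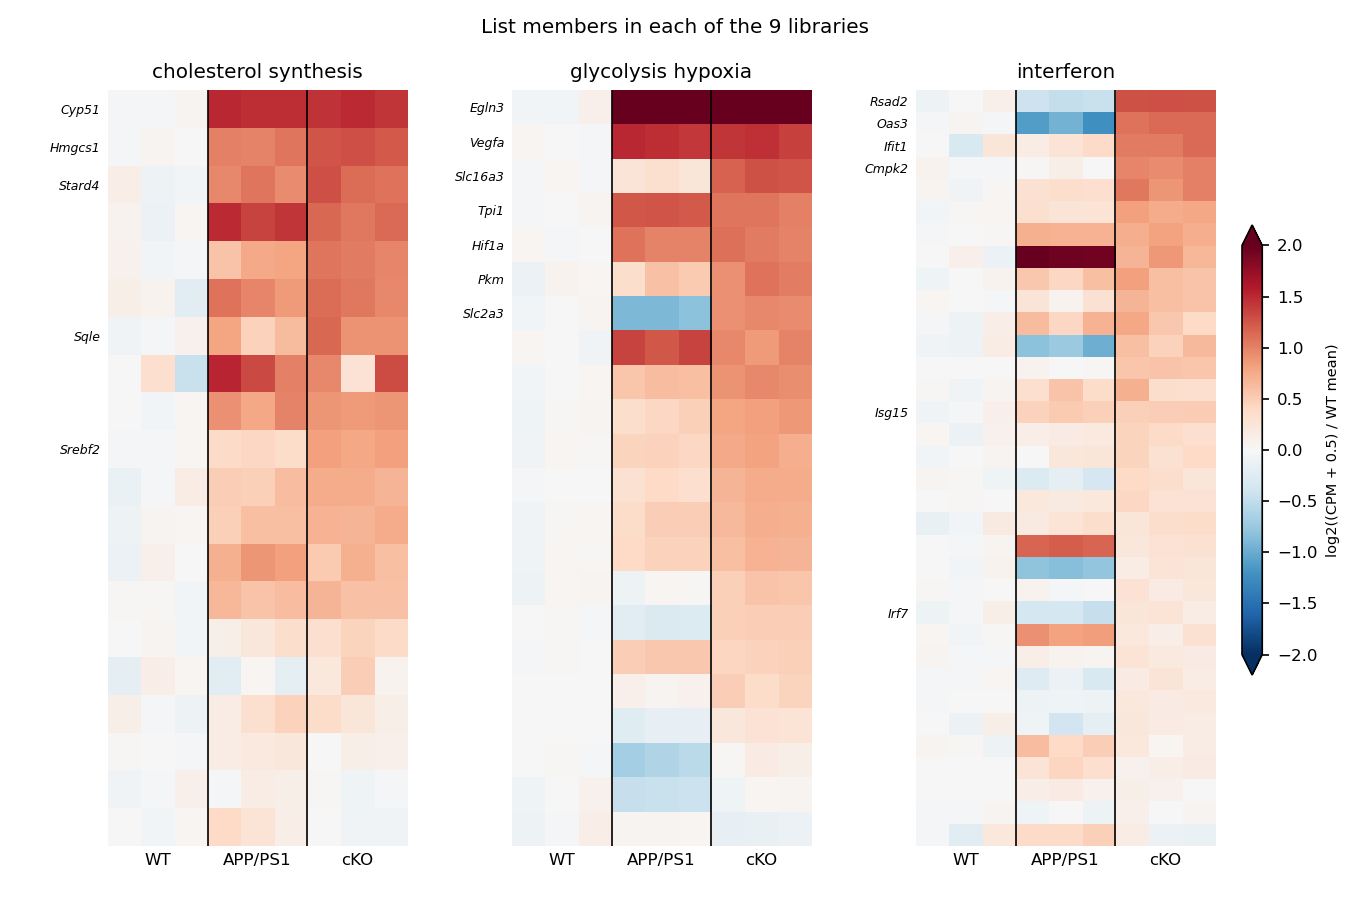
Heat map of genes of cholesterol synthesis, glycolysis and interferon response in the 9 libraries (columns), 1 row per gene with a symbol where the text names it and a few members not shown, coloured by the log2 ratio of CPM + 0.5 to the WT mean with the colour limit at 2 in both directions. Cholesterol and glycolysis genes are above WT in most rows of Cx43 cKO, and several interferon genes are high there and not in APP/PS1.

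Genes typical of resting microglia were divided, and the balance depended on the scaling. Of 35 tested, 12 were higher, 15 lower and 8 did not pass with TMM scaling, 9 were higher and 21 lower with plain library totals, and 9 were higher and 23 lower on TPM. Of all genes, 23.8% were lower with TMM scaling, 39.8% with plain library totals and 51.6% on TPM. With TMM scaling the median difference was -0.05 (0.00 in APP/PS1). Tmem119, a surface protein used to mark microglia, was 1057, 1123 and 1119.5 CPM in the WT, 840.0, 907 and 906 CPM in the APP/PS1 and 789.5, 853 and 857 CPM in the Cx43 cKO libraries (log2 -0.40, SE 0.04, adjusted p = 1.19e-08), lower in every library of Cx43 cKO than in any of WT. Csf1r, the receptor on which microglia depend for survival, was 6641, 6605 and 6610.5 CPM in the WT, 4700.5, 4772 and 4728 CPM in the APP/PS1 and 5516, 5565 and 5531 CPM in the Cx43 cKO libraries (log2 -0.26, SE 0.02, adjusted p = 3.75e-10), with APP/PS1 the lowest. Crybb1, a crystallin gene of resting microglia, was 235, 265 and 259.5 CPM in the WT, 184, 206 and 211 CPM in the APP/PS1 and 116, 129 and 134 CPM in the Cx43 cKO libraries (log2 -0.999, SE 0.07, adjusted p = 5.69e-06). Its Cx43 cKO libraries were the lowest. Fcrls, an Fc receptor-like gene of microglia, rose against the others, at 198, 191 and 197 CPM in the WT, 1582, 1595 and 1568 CPM in the APP/PS1 and 1246, 1253 and 1239 CPM in the Cx43 cKO libraries (log2 2.67, SE 0.03, adjusted p = 2.62e-30). Sparc, a matrix protein of resting microglia, rose too (log2 0.76, SE 0.03, adjusted p = 9.99e-18). Cst3, the cathepsin inhibitor cystatin C, was 6607, 6228 and 6445 CPM in the WT, 14666, 13652 and 14425 CPM in the APP/PS1 and 8980.0, 8258 and 8574 CPM in the Cx43 cKO libraries (log2 0.42, SE 0.03, adjusted p = 7.82e-10), between the other groups. The ADP receptor gene P2ry12 was higher by 0.18 (adjusted p = 0.00365), a difference that turned to -0.019 on TPM, and the transcription factor gene Sall1 had a log2 difference of -0.11.

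Immediate early and stress genes, which respond within minutes to stimulation and to tissue handling, were mostly lower. Of 23 tested, 15 were lower, 3 higher and 5 did not pass, beside 23.8% and 26.3% of all genes, and the median difference was -0.18 (-0.28 in APP/PS1). With plain library totals 18 were lower and 1 higher, and on TPM 21 and 1, where 39.8% and 51.6% of all genes were lower. Socs3, a feedback inhibitor of cytokine signalling, was 1705, 1864 and 1818 CPM in the WT, 1133, 1200.1 and 1191 CPM in the APP/PS1 and 1161, 1269 and 1237 CPM in the Cx43 cKO libraries (log2 -0.55, SE 0.04, adjusted p = 1.59e-10), with overlapping libraries of both amyloid groups. Klf2, Zfp36, Jun and Egr1 had log2 differences of -0.50, -0.37, -0.29 and -0.24.

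**Figure D4:**
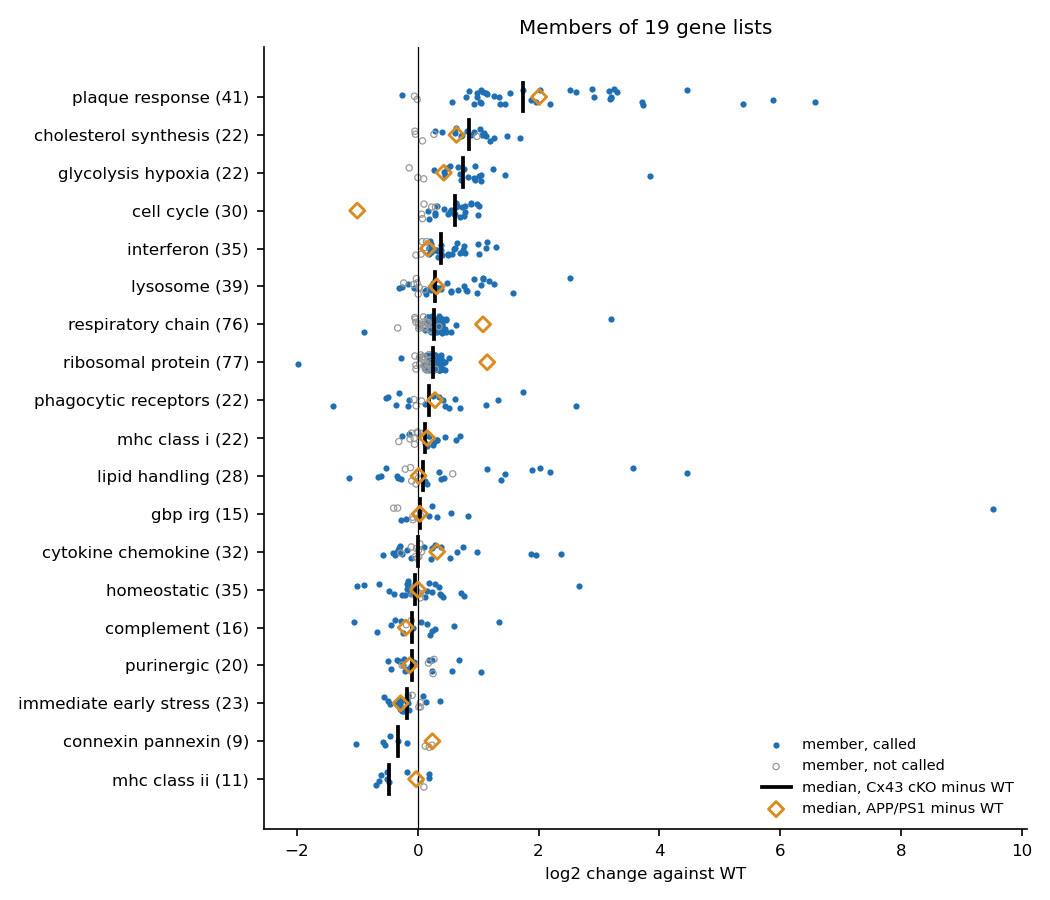
Log2 difference of Cx43 cKO minus WT for every tested member of 19 gene lists, 1 point per gene, with a black bar at the list's median and an open diamond at the median of APP/PS1 minus WT (both comparisons use the same WT libraries). The plaque list has a median of 1.74 and the diamond at 2.01, while cholesterol synthesis, glycolysis, interferon and cell cycle are among the lists with the bar to the right of the diamond.

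Interferon-response genes were higher than in WT in 30 of 35 cases, with none lower, where 26.3% of all genes were higher. Of the 37 listed, 35 are in the table and all of these reached the level. The median difference was 0.39, and 0.17 in APP/PS1. On TPM, 20 of the 35 were called higher and none lower, beside 12.7% and 51.6% of all genes. Rsad2 encodes viperin, an antiviral enzyme. It stood at 23.6, 25.1 and 27.4 CPM in the WT, 18.9, 18.2 and 18.5 CPM in the APP/PS1 and 62.2, 63.0 and 61.7 CPM in the Cx43 cKO libraries (log2 1.30, SE 0.05, adjusted p = 1.36e-17), and against APP/PS1 the difference was 1.75. Oas3, a sensor of double-stranded RNA, was 13.1, 13.9 and 12.9 CPM in the WT, 5.84, 6.67 and 5.39 CPM in the APP/PS1 and 28.8, 29.7 and 29.7 CPM in the Cx43 cKO libraries (log2 1.14, SE 0.07, adjusted p = 5.23e-14). In both genes the Cx43 cKO libraries were the highest and those of APP/PS1 the lowest. Ifit1, which binds viral RNA, was 7.74, 6.205 and 9.30 CPM in the WT, 8.68, 9.47 and 10.2 CPM in the APP/PS1 and 16.5, 16.5 and 17.6 CPM in the Cx43 cKO libraries (log2 1.12, SE 0.10, adjusted p = 1.28e-09), and Cmpk2, a mitochondrial nucleotide kinase, was 8.38, 7.68 and 7.73 CPM in the WT, 8.08, 8.66 and 7.86 CPM in the APP/PS1 and 16.05, 15.7 and 16.5 CPM in the Cx43 cKO libraries (log2 1.02, SE 0.08, adjusted p = 3.79e-11). Isg15, a ubiquitin-like protein, was 32.6, 33.8 and 36.8 CPM in the WT, 47.6, 49.7 and 48.3 CPM in the APP/PS1 and 47.8, 48.7 and 49.2 CPM in the Cx43 cKO libraries (log2 0.50, SE 0.05, adjusted p = 3.73e-09), with overlapping amyloid groups. Irf7, a transcription factor of the pathway, had a small log2 difference of 0.22, which did not pass on TPM. Against APP/PS1, 21 of the 35 were higher and 6 lower, beside 29.1% and 28.4% of all genes.

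The promoters were searched for GAAANNGAAA, the core letters of the interferon-stimulated response element, on both strands of the same RefSeq windows. It was found in 15 of the 27 interferon genes with a window (55.6%), against 420 of 10482 kept genes with a window (4.01%) and 1079 of 27025 genes overall (3.99%). Of the 15, 13 were called higher than in WT, as were 30 of the 35 genes of the whole list. The windows around the match are shown for the interferon genes whose rise was largest, Rsad2 (chr12:26456538-26456597, minus strand), Oas3 (chr5:120777700-120777759, minus strand) and Ifit1 (chr19:34640779-34640838, plus strand), where it lies 120, 75 and 85 bases before the start. Capitals mark the match, which reads TTTC on the reverse orientation in Rsad2 and Ifit1. The Ifit1 window holds a further match, 104 bases before the start, which is left in lower case.

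Rsad2: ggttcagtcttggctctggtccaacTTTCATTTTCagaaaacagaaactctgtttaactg
Oas3: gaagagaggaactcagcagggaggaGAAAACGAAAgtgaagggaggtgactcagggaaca
Ifit1: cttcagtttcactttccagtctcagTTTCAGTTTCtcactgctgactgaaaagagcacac

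Guanylate-binding proteins and immunity-related GTPases are induced by interferon gamma. Of 15 tested, 6 were higher, 2 lower and 7 did not pass (3 higher and 6 lower on TPM, and 5 higher and 4 lower with the library number as a block), where 26.3% of all genes were higher and 23.8% lower (12.7% and 51.6% on TPM). They had a median of 0.03 that turned negative with plain library totals, on TPM and on FPKM, and also without WT replicate 2 (-0.008). Gbp2b stood apart. It held 2, 0 and 1 counts in the WT libraries and 813, 747 and 784 counts in the Cx43 cKO libraries, a ratio of 770-fold with an exact 95% counting interval from 263 to 3738. The APP/PS1 libraries were as low as WT, at 0.0546, 0.0538 and 0.108 CPM. Its neighbours in the family moved little by comparison, Gbp3 by 0.56 and Gbp2 by 0.31 on the log2 scale. Gbp2b has near relatives in the genome, so reads may be divided among them with error.

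Antigen presentation genes were counted by class, and the difference between the classes was not tested. Class II genes were lower in 7 of 11 cases and higher in 2, beside 23.8% and 26.3% of all genes, with a median of -0.48 (-0.03 in APP/PS1). With plain library totals 7 were lower and none higher, and on TPM 8 and none, where 39.8% and 51.6% of all genes were lower. Relative to the median of all genes, the class II median was -0.48 with TMM scaling and -0.19 on TPM. H2-Eb1, a class II beta chain, was 247, 246 and 244 CPM in the WT, 185, 191 and 192 CPM in the APP/PS1 and 148, 157 and 152 CPM in the Cx43 cKO libraries (log2 -0.69, SE 0.03, adjusted p = 5.03e-16), and H2-Aa, an alpha chain, was 305, 298 and 302 CPM in the WT, 350.2, 351 and 362 CPM in the APP/PS1 and 215, 211 and 208 CPM in the Cx43 cKO libraries (log2 -0.51, SE 0.03, adjusted p = 5.73e-14). Both were lowest in Cx43 cKO. H2-Ab1 and Cd74, the beta chain partner of H2-Aa and the invariant chain, had log2 differences of -0.51 and -0.17. Ciita, the master regulator of class II, fell too (log2 -0.48, SE 0.14, adjusted p = 0.00586), but did not pass without the second Cx43 cKO library (adjusted p = 0.0533). Class I genes were higher in 11 of 22 cases and lower in 2 with TMM scaling, 7 and 9 with plain library totals, 5 and 10 on TPM, and 12 and 5 with the library number as a block. Of all genes, 26.3% were higher and 23.8% lower with TMM scaling, 17.6% and 39.8% with plain library totals, and 12.7% and 51.6% on TPM. Their median of 0.12 turned negative on TPM. B2m, the shared light chain of class I, was 1546, 1476 and 1553 CPM in the WT, 4149.8, 3878 and 4077 CPM in the APP/PS1 and 2530.3, 2440.0 and 2496 CPM in the Cx43 cKO libraries (log2 0.71, SE 0.03, adjusted p = 2.5e-17), between the other groups, and Nlrc5, the class I regulator, had a log2 difference of 0.63.

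Complement genes were higher in 7 of 16 cases and lower in 7 (3 and 9 on TPM), where 26.3% of all genes were higher and 23.8% lower (12.7% and 51.6% on TPM). Their median was -0.09 (-0.20 in APP/PS1), and -0.02 without WT replicate 3. C3, the central component, was 63.7, 62.4 and 69.0 CPM in the WT, 24.9, 25.2 and 27.3 CPM in the APP/PS1 and 162, 164 and 169 CPM in the Cx43 cKO libraries (log2 1.34, SE 0.04, adjusted p = 5.59e-20), with Cx43 cKO highest and APP/PS1 lowest. Itgb2, a chain of the complement receptors CR3 and CR4, rose by 0.60, and Serping1, the C1 inhibitor gene, had a log2 difference of -1.05. C1qa was higher by 0.15, which turned to -0.044 on TPM. Neutrophils also express C3 and Itgb2, and the part of the higher neutrophil markers in them was not tested.

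Cytokine and chemokine genes were higher in 12 of 32 cases and lower in 11, against 26.3% and 23.8% of all genes, with a median of 0.00 (0.32 in APP/PS1). The balance depended on the scaling, with 10 higher and 16 lower on plain library totals and 8 higher and 18 lower on TPM, where 39.8% and 51.6% of all genes were lower. Il1rn, the natural antagonist of interleukin 1, was 15.97, 13.5 and 17.0 CPM in the WT, 19.001, 19.4 and 20.5 CPM in the APP/PS1 and 83.0, 79.6 and 79.0 CPM in the Cx43 cKO libraries (log2 2.38, SE 0.06, adjusted p = 5.55e-22), highest in Cx43 cKO in every library. Il1b was 943, 928 and 925 CPM in the WT, 2037, 1999 and 1982 CPM in the APP/PS1 and 1379.7, 1344 and 1327 CPM in the Cx43 cKO libraries (log2 0.53, SE 0.03, adjusted p = 1.22e-15), between the other groups, and Il1a was 5178, 5109.7 and 5323 CPM in the WT, 5643, 5526 and 5814 CPM in the APP/PS1 and 4182, 4138 and 4331 CPM in the Cx43 cKO libraries (log2 -0.30, SE 0.03, adjusted p = 2.8e-10), below both. Tnf and Ccl2 were lower, with log2 differences of -0.30 and -0.41, and Il12b was higher by 0.99. Against APP/PS1, 6 of the 32 were higher and 19 lower, where 29.1% of all genes were higher and 28.4% lower.

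Phagocytic receptors were higher in 12 of 22 cases and lower in 7 (10 and 11 on TPM), where 26.3% of all genes were higher and 23.8% lower (12.7% and 51.6% on TPM). They had a median of 0.19 (0.29 in APP/PS1) that turned to just below 0 on TPM. Axl, a receptor for dying cells, was also among them, at 113, 108 and 115 CPM in the WT, 357, 383 and 384 CPM in the APP/PS1 and 364, 377 and 382 CPM in the Cx43 cKO libraries (log2 1.74, SE 0.04, adjusted p = 6.13e-24), and the amyloid groups overlapped.

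Connexin and pannexin genes other than Gja1 were lower or did not pass. Of 9 tested, including Gja1, 6 were lower, none higher and 3 did not pass, where 23.8% of all genes were lower, with a median of -0.32 (0.24 in APP/PS1). Gja4, a connexin of vessel walls, was 10.4, 9.31 and 9.06 CPM in the WT, 6.06, 6.89 and 6.79 CPM in the APP/PS1 and 4.66, 4.03 and 5.42 CPM in the Cx43 cKO libraries (log2 -1.03, SE 0.11, adjusted p = 1.71e-08), and its libraries in Cx43 cKO lay below all WT libraries. Gjc1 and Gjb6 had log2 differences of -0.57 and -0.54. Gjb2 passed narrowly (log2 -0.46, adjusted p = 0.0461) and did not pass with DESeq2 size factors. Most of these genes belong to vessel or glial cells, and 14 of 14 vessel markers were also lower in Cx43 cKO. Their part in the connexin values was not tested.

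Purinergic genes, which serve signalling by ATP and adenosine, were higher in 6 of 20 cases and lower in 10, where 26.3% of all genes were higher and 23.8% lower, with a median of -0.09 (-0.14 in APP/PS1). On TPM 2 were higher and 11 lower, near the 51.6% of all genes that were lower. Adora1, the adenosine A1 receptor gene, was 9.68, 10.9 and 11.3 CPM in the WT, 14.8, 15.8 and 14.8 CPM in the APP/PS1 and 21.2, 21.3 and 23.1 CPM in the Cx43 cKO libraries (log2 1.04, SE 0.07, adjusted p = 4.26e-12), rising from WT over APP/PS1 to Cx43 cKO without overlap. P2ry14, a receptor for UDP-glucose, had a log2 difference of -0.49.

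Cell cycle genes were higher than WT in 25 of 30 cases, with none lower (19 higher and 1 lower on TPM), where 26.3% of all genes were higher (12.7% on TPM). The median was 0.61, whereas the APP/PS1 median was -1.002. Mki67, a marker of dividing cells, was 64.6, 62.8 and 61.9 CPM in the WT, 27.3, 24.6 and 29.0 CPM in the APP/PS1 and 108, 103 and 104 CPM in the Cx43 cKO libraries (log2 0.73, SE 0.04, adjusted p = 9.15e-14), with Cx43 cKO the highest and APP/PS1 the lowest. Top2a and Cenpe, which act in chromosome separation, had log2 differences of 0.78 and 1.01. The later granule genes of neutrophils followed the same order of groups (sums below), and their part in the cell cycle genes was not tested.

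Ribosomal protein genes were higher in 56 of 77 cases and lower in 2, with a median of 0.24, where 26.3% of all genes were higher and 23.8% lower. On TPM 24 were higher and 11 lower, beside 12.7% and 51.6% of all genes. With offsets for transcript length 37 were higher and 5 lower, beside 26.6% and 21.7% of all genes, and the median was 0.13. In APP/PS1 the median was 1.15, and all 77 were called lower in the direct comparison with APP/PS1, as were 28.4% of all genes. Respiratory chain genes were higher in 57 of 76 cases and lower in 1 (26 and 11 on TPM), with a median of 0.27 against 1.08 in APP/PS1. With the length offsets 39 were higher and 3 lower, and the median was 0.14. Set directly against APP/PS1, 70 of them were lower and 2 higher. Cox6a2, a muscle-type subunit that also belongs to the plaque genes, had the largest rise of them (log2 3.21). The 2 ribosomal genes called lower were Rps27 (log2 -0.28) and Rpl34. Rpl34 was at 172, 169 and 165 CPM in the WT, 466, 450.1 and 432 CPM in the APP/PS1 and 50.3, 38.4 and 39.7 CPM in the Cx43 cKO libraries (log2 -1.98, SE 0.09, adjusted p = 1.41e-07). Its near-identical processed copy Rpl34-ps1, looked up after these values were seen, was 1.85, 0 and 0.441 CPM in the WT, 1.15, 0 and 1.24 CPM in the APP/PS1 and 153, 158 and 145 CPM in the Cx43 cKO libraries. The sum of both was 173, 169 and 166 CPM in WT and 203, 196 and 184 CPM in Cx43 cKO, so the fall of Rpl34 was gone in the sum, and reads of these genes are uncertain.

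Markers of other cell types moved with the genotype and touch the comparisons above. Beside their counts, 26.3% of all genes were higher and 23.8% lower. Of 20 neutrophil granule genes tested, 15 were higher and 5 lower, and they are described by granule type, a division made after their values were seen. Later granule genes of neutrophils, 15 in number, summed to 2987 to 3022 CPM in WT, 961 to 981 CPM in APP/PS1 and 9734 to 9891 CPM in Cx43 cKO. All 15 were higher than in WT, with log2 differences from 1.11 to 1.98. Ltf, which encodes lactoferrin, was 332, 336 and 339 CPM in the WT, 57.2, 54.5 and 55.0 CPM in the APP/PS1 and 1285, 1306 and 1301 CPM in the Cx43 cKO libraries (log2 1.95, SE 0.03, adjusted p = 2.86e-27), and Ngp, neutrophilic granule protein, was 668, 654 and 660.3 CPM in the WT, 135, 135 and 134 CPM in the APP/PS1 and 2316, 2304 and 2332 CPM in the Cx43 cKO libraries (log2 1.81, SE 0.03, adjusted p = 2.86e-27). S100a9, a subunit of calprotectin, was 773, 735 and 742 CPM in the WT, 327, 301 and 319.9 CPM in the APP/PS1 and 2294, 2122 and 2140.1 CPM in the Cx43 cKO libraries (log2 1.54, SE 0.03, adjusted p = 1.22e-21). Lcn2, which encodes a siderophore-binding protein, and Cd177, a neutrophil surface protein, rose by 1.93 and 1.86 on the log2 scale. In all of these the order was Cx43 cKO, WT and APP/PS1, from high to low. The 5 azurophil granule genes of early precursors went the other way, from 511 to 539 CPM in WT to 325 to 336 CPM in Cx43 cKO, and were at 8.30 to 10.01 CPM in APP/PS1. Mpo, which encodes myeloperoxidase, was 292, 302 and 315 CPM in the WT, 4.20, 6.13 and 5.06 CPM in the APP/PS1 and 183, 186 and 193 CPM in the Cx43 cKO libraries (log2 -0.69, SE 0.04, adjusted p = 1.97e-13). The granule protease genes Elane, Ctsg and Prtn3 had log2 differences of -0.79, -0.85 and -0.40. Markers of mature neutrophils were higher in 9 of 10 cases and summed to 948 to 1025, 601 to 665 and 1356 to 1418 CPM.

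Red cell genes were lower in all 10 cases tested, with sums of 1253 to 1315 CPM in WT, 272 to 300 CPM in APP/PS1 and 124 to 137 CPM in Cx43 cKO. Hbb-bs, an adult beta globin, was 491, 485 and 448 CPM in the WT, 140.3, 129 and 115 CPM in the APP/PS1 and 46.4, 41.8 and 35.2 CPM in the Cx43 cKO libraries (log2 -3.53, SE 0.11, adjusted p = 2.51e-07). Slc4a1, the anion exchanger of red cells, was 45.3, 46.1 and 46.8 CPM in the WT, 0.382, 0.484 and 0.431 CPM in the APP/PS1 and 4.13, 4.29 and 4.48 CPM in the Cx43 cKO libraries (log2 -3.42, SE 0.07, adjusted p = 1.48e-23), so its order of the amyloid groups was the reverse of that of the globin. Vessel markers were lower in 14 of 14 cases, with sums of 1445 to 1482 CPM in WT, 1336 to 1349.6 CPM in APP/PS1 and 992 to 1016 CPM in Cx43 cKO. Markers of border macrophages were lower in 10 of 11, with sums of 1057 to 1072, 833 to 835 and 749 to 759 CPM in the same order. Acta2 of smooth muscle had a log2 difference of -0.93, Abcc9 of pericytes -1.12, and Cldn5 of the endothelial tight junction -0.67. Lyve1, Clec10a and Pf4 of border macrophages had -0.97, -0.999 and -0.81. Markers of B cells were lower in 6 of 8 cases, including the transcription factor gene Pax5 (log2 -1.90). A pair of antibody-secretion genes, looked up after their values were seen, went the other way. Jchain, the joining chain of secreted antibodies, was 48.2, 43.6 and 45.9 CPM in the WT, 32.0, 29.9 and 30.5 CPM in the APP/PS1 and 404, 365 and 376 CPM in the Cx43 cKO libraries (log2 3.05, SE 0.04, adjusted p = 4.08e-27), and Mzb1, its chaperone, was 1.65, 2.66 and 1.71 CPM in the WT, 0.874, 0.861 and 0.862 CPM in the APP/PS1 and 12.7, 14.3 and 13.2 CPM in the Cx43 cKO libraries (log2 2.74, SE 0.13, adjusted p = 1.31e-15).

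T and NK cell markers were higher in 7 of 13 cases, lower in 1 and did not pass in 5, beside 26.3% of all genes higher and 23.8% lower. They summed to 74.3 to 79.9 CPM in WT, 106 to 108 CPM in APP/PS1 and 97.1 to 103 CPM in Cx43 cKO, so that the APP/PS1 libraries were the highest. Cd5 was 2.25, 2.51 and 2.64 CPM in the WT, 6.01, 5.59 and 6.84 CPM in the APP/PS1 and 7.63, 8.21 and 9.01 CPM in the Cx43 cKO libraries (log2 1.74, SE 0.13, adjusted p = 8.52e-12). Il17a, the cytokine of a subset of T cells, rose from 1.10, 1.23 and 0.734 CPM in WT to 31.8, 31.2 and 30.8 CPM in Cx43 cKO (log2 4.93, SE 0.11, adjusted p = 9.36e-23), and stood at 0.655, 0.646 and 0.700 CPM in APP/PS1. Cd163l1, a gene of gamma-delta T cells in mice, was 2.79, 2.66 and 3.08 CPM in the WT, 0.546, 0.592 and 0.377 CPM in the APP/PS1 and 19.3, 18.8 and 20.6 CPM in the Cx43 cKO libraries (log2 2.78, SE 0.10, adjusted p = 2.57e-18). Nos2, inducible nitric oxide synthase, was 1.85, 1.13 and 1.86 CPM in the WT, 0.491, 0.861 and 0.592 CPM in the APP/PS1 and 24.3, 29.96 and 27.7 CPM in the Cx43 cKO libraries (log2 4.08, SE 0.13, adjusted p = 8.41e-19). The last pair was picked after values were seen. For all 3 genes, every Cx43 cKO library lay above every library of the other groups. Of 10 monocyte markers 5 were higher and 2 lower (4 and 4 on TPM), with sums of 1220 to 1299 CPM in WT, 984 to 1049.5 CPM in APP/PS1 and 1224 to 1280 CPM in Cx43 cKO. Oligodendrocyte markers were higher in 3 of 13 cases and lower in 2 (3 and 7 on TPM), with sums of 1579 to 1643, 1598 to 1642 and 1514 to 1579 CPM in the same order. Neuronal markers were higher in 1 of 10 cases and lower in 5 (0 and 7 on TPM), with sums of 75.6 to 84.2, 81.1 to 93.3 and 59.9 to 63.1 CPM. Gfap, an astrocyte gene that rises around plaques, was 6.94, 7.19 and 6.41 CPM in the WT, 38.3, 42.6 and 42.3 CPM in the APP/PS1 and 43.9, 43.3 and 42.7 CPM in the Cx43 cKO libraries (log2 2.66, SE 0.07, adjusted p = 1.21e-21), although 6 of 15 astrocyte markers were higher, 5 lower and 4 did not pass. Of these markers 4 were higher and 5 lower with plain library totals, beside 17.6% and 39.8% of all genes. On TPM 2 of the markers were higher and 8 lower, near the 12.7% and 51.6% of all genes. The sign of the markers' median (-0.02) depended on the scaling. Aqp4, a water channel of astrocytes, rose by 0.66, and Gad1, of inhibitory neurons, had a log2 difference of -1.08. The 12 microglial markers summed to 21682 to 21948 CPM in WT, 26466 to 26609 CPM in APP/PS1 and 24414 to 24529 CPM in Cx43 cKO, with 9 higher and 3 lower than WT. How much each of these cell types contributed to the changes in the lists above was not tested.

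**Figure D5:**
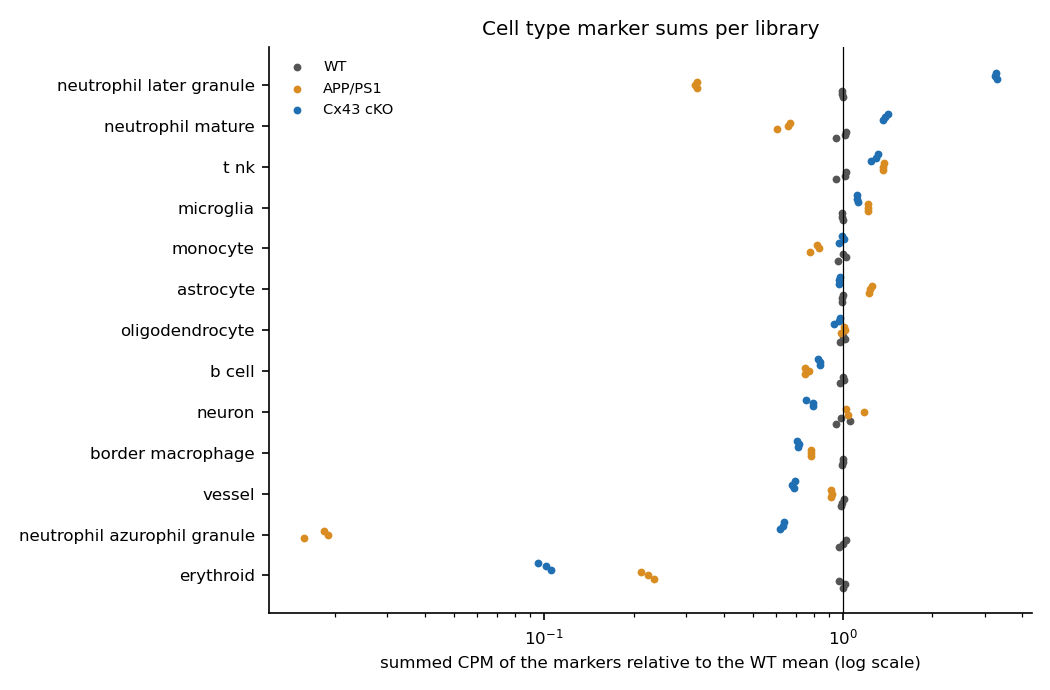
Summed CPM of the markers of each cell type in every library, divided by the WT mean, on a log axis, with 1 point per library coloured by group. Later neutrophil granule markers are above WT in Cx43 cKO and below it in APP/PS1, while red cell, vessel and border macrophage markers are below WT in Cx43 cKO.

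The neighbourhood of both engineered loci was examined. Within 2 Mb of Cx3cr1, 6 of 39 other kept genes (15.4%) were at least 2-fold changed, 4 higher and 2 lower, against 4.38% of all genes. Within 10 Mb the count was 12 of 117 (10.3%). Near Gja1 it was 0 of 9 within 2 Mb and 5 of 69 (7.25%) within 10 Mb. The genes near Cx3cr1 were, as looked up after the counts, Ulk4 (log2 1.32), Cck (1.07), Lyzl4 (7.26) and Vipr1 (1.68) among the higher and Vill (-2.28) and Acvr2b (-1.08) among the lower ones. All 6 also differed from WT in the same direction in APP/PS1, which carries no Cre by its label, by 1.70, 1.94, 5.00, 1.53, -1.79 and -0.62, in a comparison that shares the WT libraries. The wider window also holds the neutrophil genes Ltf and Ngp.

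Large changes were also found outside the lists. Atp8a2, a phospholipid flippase, was 40.7, 41.5 and 45.2 CPM in the WT, 36.7, 36.8 and 39.3 CPM in the APP/PS1 and 0.635, 1.31 and 1.56 CPM in the Cx43 cKO libraries (log2 -5.17, SE 0.12, adjusted p = 1.08e-21), near 0 in Cx43 cKO and little below WT in APP/PS1. Lyzl4, a lysozyme-like gene, was 0.0998, 0.246 and 0.0490 CPM in the WT, 4.97, 3.39 and 4.90 CPM in the APP/PS1 and 19.96, 21.1 and 22.4 CPM in the Cx43 cKO libraries (log2 7.26, SE 0.21, adjusted p = 3.34e-20), with Cx43 cKO the highest. A few genes were nearly absent from WT, so their ratios are given with exact 95% counting intervals, which cover counting error only. Capn11, a calpain, held 4 counts over the WT libraries and 403 over the Cx43 cKO libraries (99.3-fold, 38.5 to 366). Trpm1, a cation channel gene, held 5 and 456 counts (89.9-fold, 38.2 to 278). Rxfp1, the relaxin receptor gene, held 6 and 130 counts (21.4-fold, 9.55 to 59.3), and Slc36a2, an amino acid transporter, held 5 and 131 counts (25.8-fold, 10.8 to 80.9). All 4 were also well above WT in APP/PS1, with at least 27 counts in each library. H60b, a ligand of the activating receptor NKG2D, was 0.299, 0.246 and 0.0979 CPM in the WT, 0.0546, 0.108 and 0.0539 CPM in the APP/PS1 and 4.24, 4.39 and 5.31 CPM in the Cx43 cKO libraries (log2 4.40, SE 0.27, adjusted p = 3.48e-13). Ppbp, a platelet chemokine, was 12.3, 10.6 and 11.7 CPM in the WT, 8.14, 7.21 and 6.95 CPM in the APP/PS1 and 0.688, 0.889 and 0.625 CPM in the Cx43 cKO libraries (log2 -3.96, SE 0.15, adjusted p = 1.01e-17), lowest in Cx43 cKO. Nmnat1, an enzyme of NAD synthesis picked after its values were seen, was 29.2, 29.3 and 28.9 CPM in the WT, 4.86, 4.25 and 3.77 CPM in the APP/PS1 and 4.61, 3.82 and 3.65 CPM in the Cx43 cKO libraries, low in both amyloid groups. Vmn2r96, a vomeronasal receptor gene, held 54, 37 and 59 counts in WT, none in APP/PS1, and 2, 0 and 0 counts in Cx43 cKO (76.1-fold lower, 20.7 to 634). The olfactory marker gene Omp and the red cell antigen gene Rhd had log2 differences of -3.58 and -3.71. Among abundant genes, Tnfaip3, an inhibitor of NF-kB signalling, was 3778, 3714 and 3728 CPM in the WT, 2832, 2847 and 2884 CPM in the APP/PS1 and 2754, 2733 and 2753 CPM in the Cx43 cKO libraries (log2 -0.45, SE 0.02, adjusted p = 9.96e-15), lower than WT in both amyloid groups. Eef1a1, a translation elongation factor, and Mpeg1, a pore-forming protein of macrophages, were higher by 0.38 and 0.67 on the log2 scale.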

How the data were processed

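The deposited table gives for each gene and library an estimated count, an FPKM and a TPM, per the file headers. HISAT, Bowtie2, DESeq2 and the build GRCm38.p6 are named, without a role, in the submitters' processing notes. All 9 libraries were grouped by their labelled genotype. Estimated counts were rounded to whole numbers, although the design had assumed plain counts. All 9 libraries entered a single edgeR 4.0.16 quasi-likelihood fit (R 4.3.3) with TMM scaling, filterByExpr and a mean per group, and Benjamini-Hochberg adjusted p under 0.05 was a call, over genes of all chromosomes. Autosomes came from the RefSeq table of GRCm38.p6, which gave 18513 genes a position, and 449 other genes at the same level lay off the autosomes and 38 had no position. The comparison, its gene lists and its tests were chosen with earlier results of these data known.

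By the rule for names, the 12 highest and 12 lowest called log2 changes, the 8 largest rises and falls in CPM and the 4 largest changes of each list could be named, without predicted genes, together with Gja1, Cx3cr1, App and Prnp. A few such genes are left out here. Abca1, Acaca, Acvr2b, Atp6v1a, C1qa, Cck, Ccl2, Ccl3, Ccl4, Cd163l1, Cd74, Cd83, Ciita, Cldn5, Ctsa, Ctsc, Ctsg, Elane, Glb1, Gpnmb, H2-Ab1, Hif1a, Igf1, Il1b, Irf7, Isg15, Itgax, Jchain, Lgals3, Mki67, Mpo, Mzb1, Nceh1, Nmnat1, Nos2, Nr1h3, P2ry12, Pkm, Plin2, Prtn3, Rpl34-ps1, Rps27, S100a8, Sall1, Scd1, Slc2a3, Spp1, Sqle, Srebf2, Tfeb, Tnf, Top2a, Tyrobp, Ulk4, Vill and Vipr1 were named outside that rule, after their values were seen. An SE belongs to the log2 difference. Libraries with the same number in Cx43 cKO and WT deviated together over 10453 genes (r from 0.11 to 0.30 in 3 pairs, and from -0.22 to 0.04 in 6 other pairs). The labels do not state a pairing, and the number was a block only in an alternative. Within groups, libraries differed by more than sampling noise (chi-square per gene 1.80 to 3.55 in 9 pairs). Alternatives were other scalings, filters, DESeq2 1.42.0, limma 3.58.1 on log2 TPM and log2 FPKM, offsets by transcript length, the block, and leaving out each library. The edgeR step was tested on simulated counts.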

Additional observations from a re-analysis of the deposited data

How the results depend on the processing

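The Cx43 cKO libraries stayed below WT for Gja1 in all 21 alternatives, with log2 differences from -0.36 to -0.28 when 1 library was left out. Without 1 library in turn, the calls numbered 5908 to 6656, those of at least 2-fold 575 to 602, and the share of calls that were higher was 51.9% to 54.3%. That share was 58.3% with DESeq2 size factors, 61.8% with its Wald test, 30.6% with plain library totals, 19.7% on TPM, and 32.1% on FPKM with a pseudocount of 1 or of 0.1. The 2-fold calls numbered 368 on TPM and 287 on FPKM with a pseudocount of 1, which draws low genes together. DESeq2's Wald test called 5015 genes. Under a block for the library number, which pairs libraries across groups, calls rose from 6562 to 7445, with 580 of at least 2-fold and Gja1 at -0.32, and the blocked fit removed no call among the named genes and added Cd83. Of 158 named genes, 147 kept their direction and their side of the threshold in every alternative that gave them a value, and 14 had none with at least 10 counts in each library. The direction turned for C1qa (-0.044) and P2ry12 (-0.019), both on TPM, where the median of all genes was -0.18. Ccl4 and Cd83 were called lower in some scalings, and Gjb2, Gjc3, Ciita, Irf7, Gbp2, Sall1 and Atp6v1a lost their call in at least 1 alternative, Gjb2 also without WT replicate 2 or 3, APP/PS1 replicate 3, or Cx43 cKO replicate 1 or 2. The median of 7 of 31 lists took the other sign in some alternative, and these lay between -0.02 and 0.19. The cause of these shifts was not tested. At 18907681 counts or more per library, counting error limits genes of a few CPM, and whether the spread holds variation between animals is not stated.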
